A study of Homo sapiens with 12 samples.

Results

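The cytosolic ribosomal protein genes encode the proteins of the ribosome that translates messages in the cytoplasm. They were taken by symbol: RPLP0, RPLP1, RPLP2, RPSA, and every other protein-coding gene named RPL or RPS with a number, then at most 1 letter (A, L, X or Y) and 1 digit. S6 kinases, pseudogenes and Y-linked copies were left out. This gave 84 genes of the 28100 named genes in the table. Of these, 77 are the standard ribosomal proteins, 46 of the large subunit and 31 of the small subunit. The other 7 are paralogs, named after a standard gene: RPL3L, RPL7L1, RPL10L, RPL22L1, RPL26L1, RPL39L and RPS27L. In total 82 of the 84 passed the filter on low counts, since RPL10L had 0 to 3 counts and RPL3L 0 to 4 counts over the 3 libraries of any group.

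RNA was sequenced from MV3, an established human melanoma cell line, with 3 libraries in each of 4 groups. Every group was first kept for 3 h in RPMI with 1% serum depleted of extracellular vesicles (EVs), and then treated for 24 h. The Ctrl group received PBS, and the M0 EV, M1 EV and M2 EV groups received 1e10 vesicle particles per well. The donor cells of the vesicles were THP-1, a monocytic line from a human leukaemia, after 48 h of polarization to 1 of these macrophage states, so the source was 1 cell line rather than primary macrophages. The labels name no polarizing agent. They do not say whether the replicates were separate cultures or vesicle preparations, so p-values measure only the spread between these samples, which may be technical.

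A ribosome joins a small subunit, which reads the message, to a large subunit, which forms the peptide bonds. Each protein is made in the cytoplasm, carried to the nucleolus, bound to ribosomal RNA with the help of biogenesis factors, and exported as part of a subunit. Messages of ribosomal proteins typically start with a run of pyrimidines, the terminal oligopyrimidine tract, through which LARP1 and mTORC1 control how much they are translated. RNA sequencing measures the level of these messages and not their translation.

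The starts of the genes are shown first because this tract is the sequence feature that most of the members share. Other members, paralogs and standard genes alike, hold no run long enough to be marked there. The windows are from RefSeq (GRCh38.p14), 30 bases long and written 5′ to 3′ on the strand of the gene, with 10 bases before the annotated start. Capitals mark a run of C and T that begins at the start itself with a C and holds at least 4 more bases. Shorter runs are not marked.
RPL18 (chr19:48619159-48619188, minus strand): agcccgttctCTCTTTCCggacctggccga
RPLP2 (chr11:809957-809986, plus strand): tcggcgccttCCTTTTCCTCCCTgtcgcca
RPS6 (chr9:19380217-19380246, minus strand): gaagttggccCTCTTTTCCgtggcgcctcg
RPL26 (chr17:8383174-8383203, minus strand): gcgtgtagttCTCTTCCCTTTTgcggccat
RPL26L1, first listed start (chr5:172958719-172958748, plus strand): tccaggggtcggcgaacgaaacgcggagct
RPL26L1, second listed start (chr5:172958870-172958899, plus strand): ggcggcggccacaaacccgcaggcacgccg
RPL22 (chr1:6199576-6199605, minus strand): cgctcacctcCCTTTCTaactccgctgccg
RPL22L1 (chr3:170870176-170870205, minus strand): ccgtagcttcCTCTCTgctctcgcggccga
RPS27 (chr1:153990752-153990781, plus strand): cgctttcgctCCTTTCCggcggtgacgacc
RPS27L (chr15:63157458-63157487, minus strand): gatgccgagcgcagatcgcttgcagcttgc
RPL7L1 (chr6:42879606-42879635, plus strand): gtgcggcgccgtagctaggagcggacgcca
RPL3, a standard gene (chr22:39319604-39319633, minus strand): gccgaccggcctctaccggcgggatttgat

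The motif searched was a C at the annotated start followed by 4 bases that are each C or T, on the strand of the gene only. Of the 67 members in the RefSeq promoter table, 47 (70.1%) held it, against 5.14% of 27305 genes in the same table. Allowing the C to lie up to 5 bases from the annotated start, 54 members held it, and 25.2% of all genes did. Among the 5 paralogs in the table, RPL22L1 alone held the motif at its start, and RPL7L1, RPL10L, RPL26L1 and RPS27L did not. Of the 62 standard genes in it, 16 did not. RPL3 was among them, with a run at its start (ctct) that is too short to match. A match describes the letters of the window and not the start used in these cells.

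As for the libraries, gene totals ran from 9694843 to 14379738 counts, which is the number of counts after 1 transcript per gene was kept. The defining melanocyte markers were near 0 (SOX10 at most 0.0463 mean CPM, counts scaled to library size, in any group, and TYR and S100B without a count), while the melanoma proteoglycan CSPG4 was at 129 to 135 CPM and AXL, a receptor of dedifferentiated melanoma, at 1038 to 1327 CPM. NGFR, another marker on the melanoma list, was near 0 as well, at 0.0912 to 0.219 mean CPM. Of 25 macrophage markers, 7 had no count, among them CD163 and TYROBP. The leukocyte marker PTPRC was at 0.0688 CPM in M1 EV and 0 elsewhere. The summed macrophage list was 57.6 to 65.4 CPM in Ctrl and 72.4 to 74.5 CPM in M1 EV, of which CD68, a lysosomal protein, made 56.7 and 66.9 CPM. The part of this list in the results was not tested. Since these are bulk samples, fewer cells of a type and less RNA per cell cannot be told apart.

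In the members themselves, 1 library stood furthest from the rest. M1 EV library 1 was the highest of all 12 libraries for 61 of the 82 tested ribosomal protein genes, against 14% of all tested genes. The median member lay 0.1 above its mean over the 12 libraries on the log2 scale there, and -0.023 and -0.0033 from it in M1 EV libraries 2 and 3. Ctrl library 1 was at the other end, with a median of -0.064 and the lowest value for 34 members. Short transcripts as a class moved the same way: the median of 948 tested genes with transcripts under 1000 bases that are no members was 0.059 in M1 EV library 1 and -0.024 in Ctrl library 1, and that of 4195 genes with transcripts of at least 4000 bases was -0.043 and 0.0084. To a lesser degree, library 1 was also the highest of its group in M0 EV and M2 EV, with member medians of 0.045 and 0.027. The short transcripts were at 0.03 and 0.036 in these libraries. Counts for M1 EV, and most values of single genes, are therefore given with and without M1 EV library 1.

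**Figure D1:**
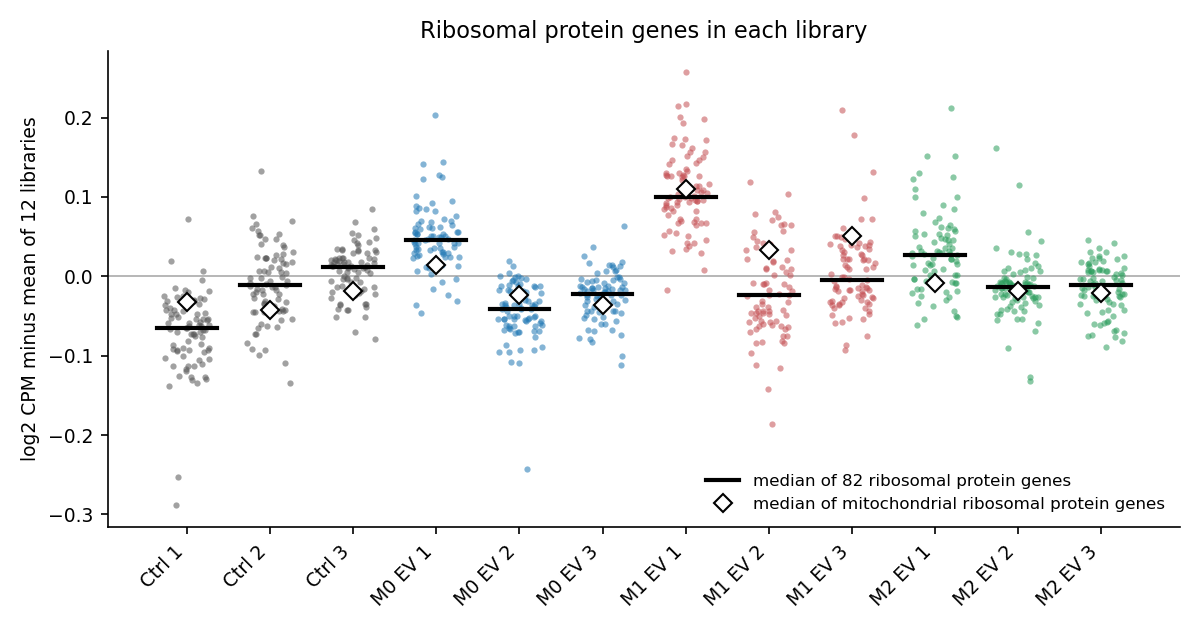
Level of each of the 82 tested ribosomal protein genes in each library, as log2 CPM minus the gene's mean over the 12 libraries (1 point per gene, the black line is their median and the open diamond the median of the mitochondrial ribosomal protein genes). M1 EV library 1 is highest (median 0.1) and Ctrl library 1 lowest (median -0.064), and in M1 EV libraries 2 and 3 the diamond lies above the line.

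The share of all gene counts held by the members overlapped between the 4 groups. It was 4.75%, 4.88% and 4.97% in Ctrl, and 5.07%, 4.78% and 4.83% in M0 EV. M1 EV had 5.22%, 4.86% and 4.91%, and M2 EV had 5.02%, 4.89% and 4.89%. The highest value was again M1 EV library 1, and the other M1 EV libraries lay within the range of Ctrl. The group means were 4.87% ± 0.11 in Ctrl, 4.9% ± 0.16 in M0 EV, 5% ± 0.2 in M1 EV and 4.93% ± 0.073 in M2 EV (SD, n = 3).

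Levels of different genes were compared per kilobase (kb) of transcript, as means over the 12 libraries. The 77 standard genes had a median of 611 CPM per kb. Among the highest members were RPLP0, the base of the stalk that recruits elongation factors, at 1811 CPM per kb, RPS2 at 1753, RPS16 at 1545 and RPL8 at 1524. The 5 lowest were RPS29 at 29.9, RPL22L1 at 8.09, RPS27L at 3.72, RPL10L at 0.05 and RPL3L at 0.0231 CPM per kb. The transcript chosen for RPS29 has an annotated length of 7062 bases, against a median of 870 for the standard genes. Per kb of coding sequence it ranked 43 of 84, the highest was RPL41 at 6232 CPM per kb, and the 7 paralogs held the 7 lowest ranks, 78 to 84.

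**Figure D2:**
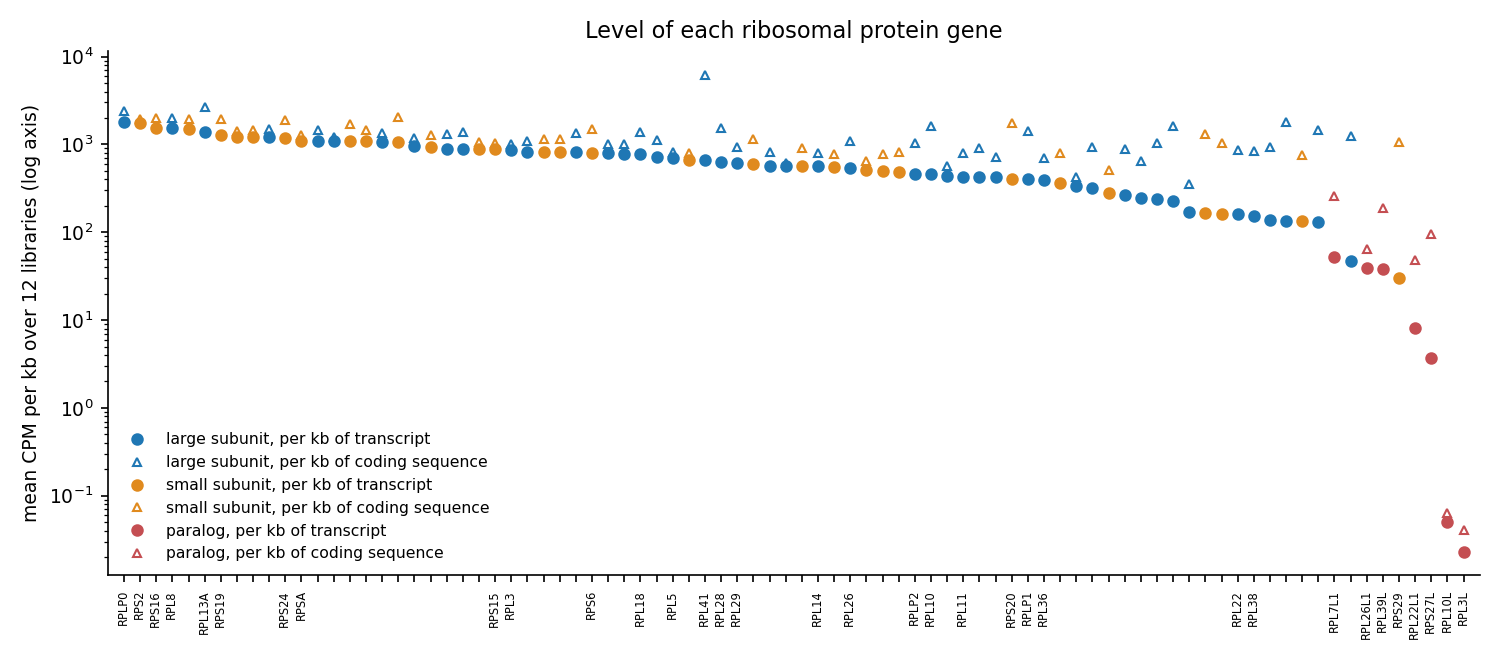
Mean CPM per kb over the 12 libraries for each of the 84 genes, in falling order, on a log axis. Filled points are per kb of transcript and open triangles per kb of coding sequence, coloured by subunit or paralog, and by the triangles the 7 paralogs are below every standard gene (names mark genes described in the text).

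Individual standard genes varied little across the 12 libraries. The coefficient of variation of CPM had a median of 3.93%, and it was lowest for RPSA, a small-subunit protein also known as a laminin receptor, at 2%. It was highest for RPS29, a zinc-binding protein of the small subunit, at 8.84%. RPS29 was at 193, 222 and 208 CPM in Ctrl and at 245, 197 and 203 CPM in M1 EV, with 244 CPM in M2 EV library 1 as well. The groups overlapped throughout for this gene.

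M1 EV against Ctrl asks how the cells responded to vesicles of the macrophage state that the study's title names. Of the 82 tested members, 21 were called higher and none lower (adjusted p below 0.05 in edgeR's quasi-likelihood test, Benjamini-Hochberg over all genes), while 14.3% of all 13116 tested genes were called higher and 13.7% lower. The changes were small: the median member differed by 0.047 on the log2 scale, or 3.34%, beside 0.00077 for all tested genes, and no member went beyond 0.22. By subunit, 13 of 46 large-subunit genes, 6 of 31 small-subunit genes and 2 of 5 tested paralogs were called. In 15 members every M1 EV library was above every Ctrl library, against 19.6% of all genes, and in 1 member, RPS27L, every one was below, against 20% of all genes. Without M1 EV library 1 the count fell to 3 genes, with 11.7% of all genes called higher, and the median of the members was 0.011. The 3 genes were all among the 21 and included RPL7L1 and RPL18. All 21 genes kept a value above 0 without that library, with a median of 0.083 in place of 0.12. The calls that selected these 21 used the same Ctrl libraries and M1 EV libraries 2 and 3. Their sign was thus largely fixed by the selection and gives no separate support. Without Ctrl library 1, 8 of the 21 were called (11.8% of all genes higher), and DESeq2 called 13 of them (10% of all genes higher).

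**Figure D3:**
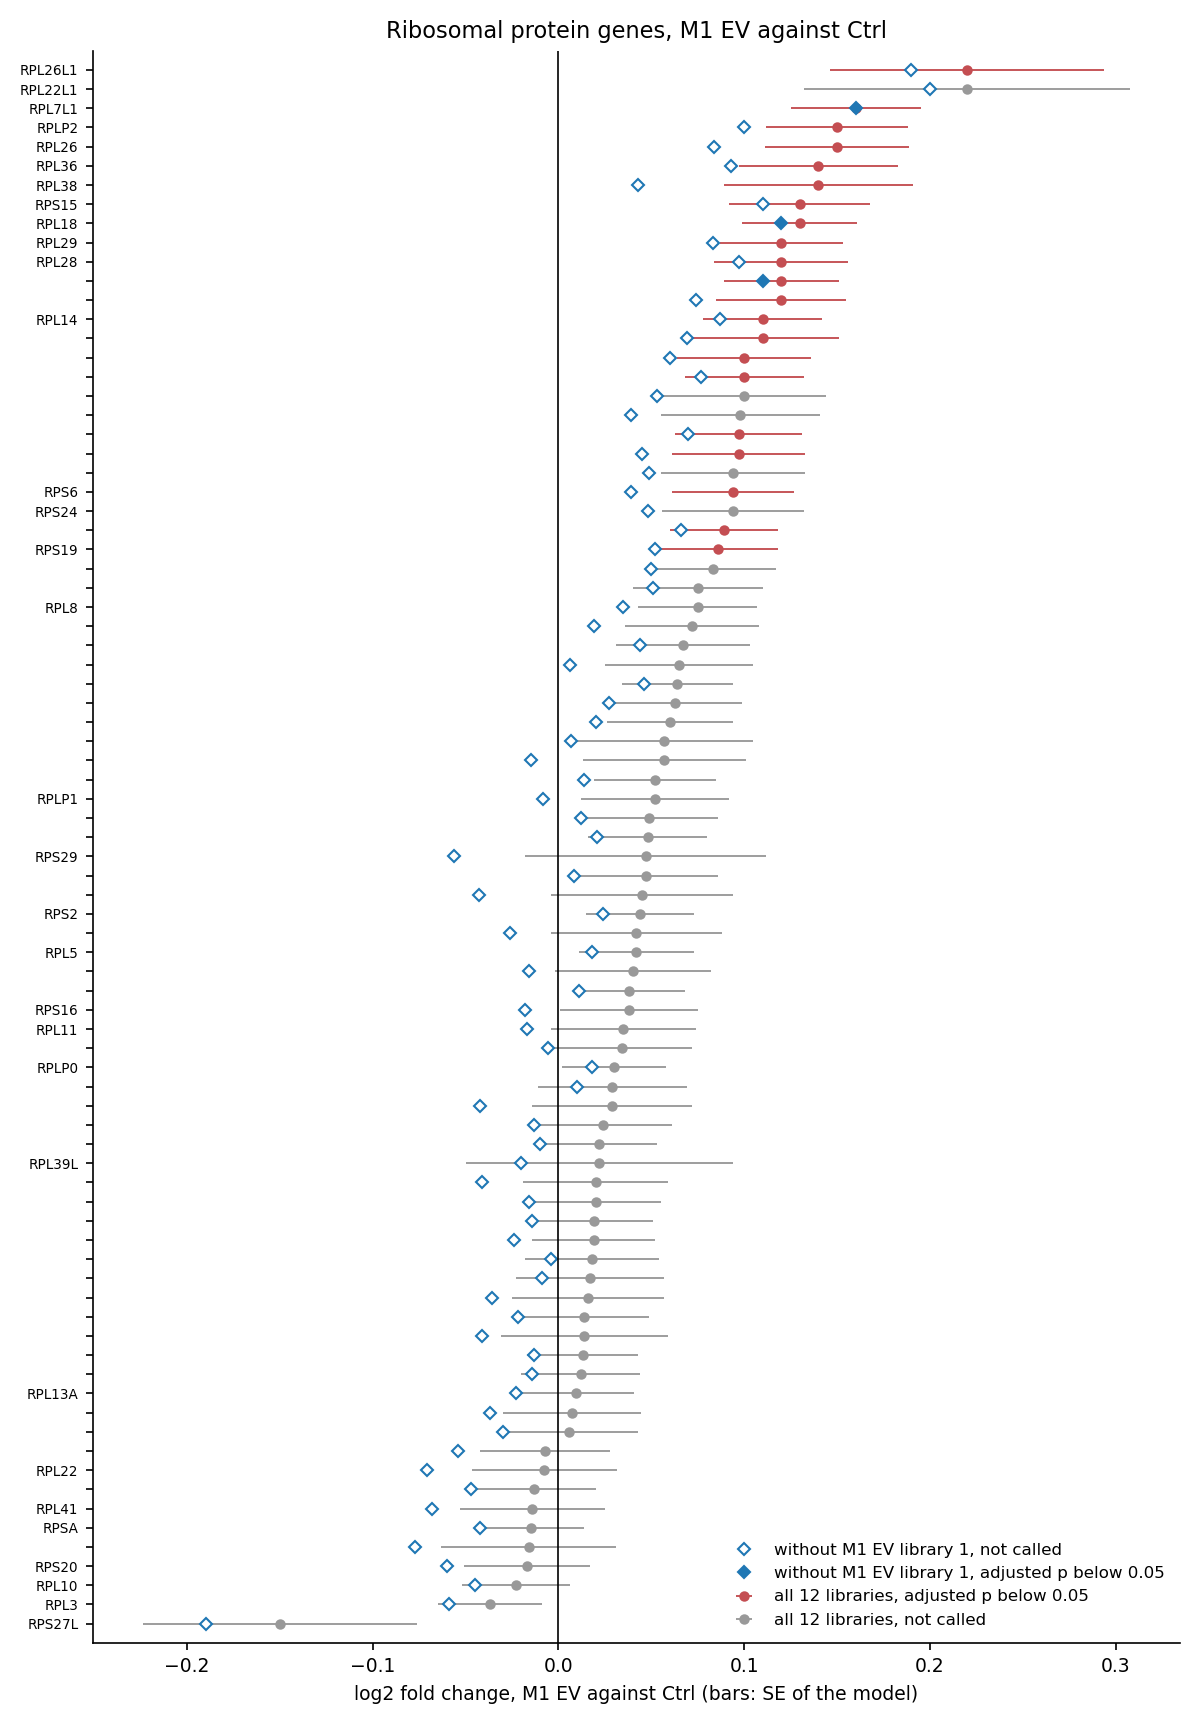
Log2 fold change of each tested ribosomal protein gene, M1 EV against Ctrl, with the SE of the model (round points, red where the adjusted p is below 0.05, 21 genes) and the value without M1 EV library 1 (diamonds, filled for the 3 genes still called). For most genes the diamond lies left of the point, and for RPL7L1 both are at 0.16 (names mark genes described in the text).

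RPL7L1 was the member with the smallest adjusted p. It is a paralog of the large-subunit gene RPL7, and its yeast relative works in the nucleolus on the assembly of the large subunit rather than in the finished ribosome. The gene lies on chromosome 6, at 42879616 to 42889900 (RefSeq, GRCh38.p14). Its level was 198, 185 and 192 CPM in Ctrl, 191, 192 and 188 CPM in M0 EV, 212, 214 and 216 CPM in M1 EV, and 195, 190 and 196 CPM in M2 EV. The 3 M1 EV libraries lay above all 9 others and the other groups overlapped. The log2 fold change in edgeR was 0.16 ± 0.035 (SE, adjusted p = 0.000556) against Ctrl, an 11.6% difference, 0.17 ± 0.035 (adjusted p = 0.000298) against M0 EV and 0.14 ± 0.035 (adjusted p = 0.00161) against M2 EV. It was called in all 3 comparisons in each of the 12 fits that leave out 1 library and the 15 other settings tried. Without M1 EV library 1 the value against Ctrl was again 0.16 (adjusted p = 0.00172).

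RPL18, a large-subunit protein, also kept its call against Ctrl in all these fits. The gene lies on chromosome 19, at 48615331 to 48619178. RPL18 was at 730, 746 and 790 CPM in Ctrl, 786, 762 and 777 CPM in M0 EV, 832, 843 and 805 CPM in M1 EV, and 771, 800 and 777 CPM in M2 EV. Its M1 EV libraries were the 3 highest, although the lowest of them came within a few CPM of M2 EV library 2. RPL18 rose by 0.13 ± 0.031 on the log2 scale (SE, edgeR adjusted p = 0.00124). The value without M1 EV library 1 was 0.12 (adjusted p = 0.00673).

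The stalk of the large subunit is made of RPLP0 with pairs of RPLP1 and RPLP2, and it draws elongation factors to the ribosome. RPLP2 was at 334, 366 and 352 CPM in Ctrl, 353, 347 and 355 CPM in M0 EV, 414, 381 and 371 CPM in M1 EV, and 361, 359 and 342 CPM in M2 EV. All 3 M1 EV libraries were above every other library, with library 1 the highest. RPLP2 rose by 0.15 ± 0.038 on the log2 scale (SE, edgeR adjusted p = 0.00214), and its value without M1 EV library 1 was 0.10 (adjusted p = 0.0523), the single setting of the 27 tried in which the call was lost. Its partners were not called: RPLP0 had a log2 fold change of 0.03 (adjusted p = 0.472) and RPLP1 of 0.052 (adjusted p = 0.363), and whether the partners differ from RPLP2 was not tested.

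RPL26, a protein at the exit of the peptide tunnel that also binds the message of p53, was at 436, 451 and 460 CPM in Ctrl and 542, 466 and 487 CPM in M1 EV. Its groups did not overlap, but M0 EV library 1 was at 493 CPM and M2 EV at 463 to 481 CPM. RPL26 rose by 0.15 ± 0.039 (SE, edgeR adjusted p = 0.00353), and by 0.084 without M1 EV library 1, which did not pass (adjusted p = 0.111). RPL36, RPS15 and RPL29 also rose against Ctrl in groups that did not overlap, by 0.14, 0.13 and 0.12. They gave 0.093, 0.11 and 0.083 without that library (adjusted p = 0.136, 0.0506 and 0.0917).

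RPS6, the protein that S6 kinases phosphorylate downstream of mTORC1, rose by 0.094 ± 0.033 (SE, edgeR adjusted p = 0.0312), with overlapping groups. It was at 1068, 1085 and 1108 CPM in Ctrl and 1246, 1103 and 1134 CPM in M1 EV, so that library 1 stood well above the rest, and the value without it was 0.039 (adjusted p = 0.443). RPL38, known for the translation of homeobox messages in development, rose by 0.14 with all libraries and was at 0.043 without M1 EV library 1 (adjusted p = 0.57). RPS19, the gene most often mutated in Diamond-Blackfan anaemia, rose by 0.086 with all libraries and was at 0.052 without that library (adjusted p = 0.3). The other anaemia genes RPS24 and RPL5 were not called, at 0.094 (adjusted p = 0.0611) and 0.042 (adjusted p = 0.34).

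RPL26, described above with its link to p53, was called higher with all libraries. Among other members known to act on p53 through MDM2 or in the interferon response, RPL5, RPL11 and RPL13A were not called. RPL5 and RPL11, which with a small ribosomal RNA bind and inhibit MDM2, were at 690, 737 and 728 CPM and at 419, 432 and 436 CPM in Ctrl. In M1 EV they were at 763, 719 and 737 CPM and at 470, 424 and 425 CPM. Both groups overlapped, and RPL11 had a log2 fold change of 0.035 (adjusted p = 0.555), and -0.017 without M1 EV library 1 (adjusted p = 0.812). RPL13A, which leaves the ribosome to silence inflammatory messages in interferon-treated monocytes, was at 1588, 1567 and 1651 CPM in Ctrl and 1681, 1577 and 1580 CPM in M1 EV (0.0095, edgeR adjusted p = 0.86), and its value without M1 EV library 1 was -0.023 (adjusted p = 0.694).

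At the low end, 10 tested members had a value below 0 in M1 EV against Ctrl, and none passed the test. The lowest was RPS27L, followed by RPL3, a protein next to the peptidyl transferase centre, at -0.037 (edgeR adjusted p = 0.365), and RPL10, which joins the large subunit late in assembly, at -0.023 (adjusted p = 0.618). RPL3 was at 1219, 1224 and 1273 CPM in Ctrl and 1242, 1209 and 1172 CPM in M1 EV, with overlap. When trends of counts with transcript length and GC content were removed in each library, RPL3 was called lower at -0.053 (adjusted p = 0.0428), and without M1 EV library 1 as well, at -0.059 (adjusted p = 0.0466).

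Removing these trends changed how much the count in M1 EV against Ctrl rested on 1 library. With the trends removed, 23 members were called higher and 1 lower, including all 21 of the genes above, and 16.9% of all genes were called higher and 15.1% lower. With the trends removed and M1 EV library 1 left out, 15 members were called higher, all of them among the 21, and 3 lower (RPL3, RPL22 and RPS20), with 14.5% of all genes called higher and 12.8% lower. The median member was then at 0.0089, beside 0.0024 for all tested genes. Both settings were chosen after the data had been seen. In this fit the members were called in both directions but mostly higher, while over all genes the shares called higher and lower were close.

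Composition and position were set beside the calls. Of 12 members on chromosome 19, 7 were called higher, with a median of 0.10, and of 70 elsewhere, 14, with a median of 0.046. Of the 837 tested genes of chromosome 19, 19.6% were called higher and 10% lower, with a median of 0.026. Without M1 EV library 1, 2 of the 12 members and 1 of the 70 were called. Median GC content of the transcript was 55.2% in the 21 called members, 48.2% in those not called and 49.4% in all tested genes, and median transcript length was 740 and 907 bases. Of the members with the pyrimidine motif at the start, 13 of 47 tested were called, and of those in the table without it 6 of 19, with medians of 0.057 and 0.049. The parts of GC content, length and position were not tested separately.

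The paralogs gave the largest values of both signs, at low levels. RPL26L1, a near copy of RPL26, was at 23, 26.9 and 29.8 CPM in Ctrl, 27.4, 27.3 and 27.6 CPM in M0 EV, 32.6, 29.2 and 31.8 CPM in M1 EV, and 29.7, 26.4 and 26.8 CPM in M2 EV. The spread in Ctrl was wide, and Ctrl library 3 lay above M1 EV library 2. RPL26L1 rose by 0.22 ± 0.074 (SE, edgeR adjusted p = 0.0224), and the value without M1 EV library 1 was 0.19 (adjusted p = 0.0993). Per kb it was 7.13% ± 0.74 of RPL26 in Ctrl and 7.56% ± 0.31 in M1 EV (SD, n = 3), so the ratio overlapped between the groups.

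RPL22L1 was read beside its partner RPL22, an RNA-binding protein of the large subunit whose loss is known to raise RPL22L1. Neither gene was called in M1 EV against Ctrl with all libraries, and a link between their values was not tested. RPL22L1 was at 14.8, 18.4 and 16.7 CPM in Ctrl, 20.3, 17.2 and 17.0 CPM in M0 EV, 19.9, 17.9 and 20.4 CPM in M1 EV, and 17.0, 16.1 and 16.9 CPM in M2 EV. The transcript with the most counts of this gene is one that RefSeq lists as non-coding. Its log2 fold change of 0.22 ± 0.088 against Ctrl missed the threshold (SE, edgeR adjusted p = 0.0582), as did that of 0.22 ± 0.084 against M2 EV (adjusted p = 0.0522), although its M1 EV and M2 EV libraries did not overlap. Its value against Ctrl without M1 EV library 1 was 0.20 (adjusted p = 0.152). RPL22 was at 316, 337 and 329 CPM in Ctrl, 346, 326 and 335 CPM in M0 EV, 353, 313 and 311 CPM in M1 EV, and 340, 338 and 340 CPM in M2 EV. M1 EV libraries 2 and 3 were the lowest of all 12 and M1 EV library 1 the highest. With all libraries RPL22 was not called against Ctrl (-0.0076), M0 EV or M2 EV. Without M1 EV library 1 it fell by 0.10 against M0 EV (edgeR adjusted p = 0.0432) and by 0.12 against M2 EV (adjusted p = 0.0172), and was at -0.071 against Ctrl (adjusted p = 0.186).

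**Figure D4:**
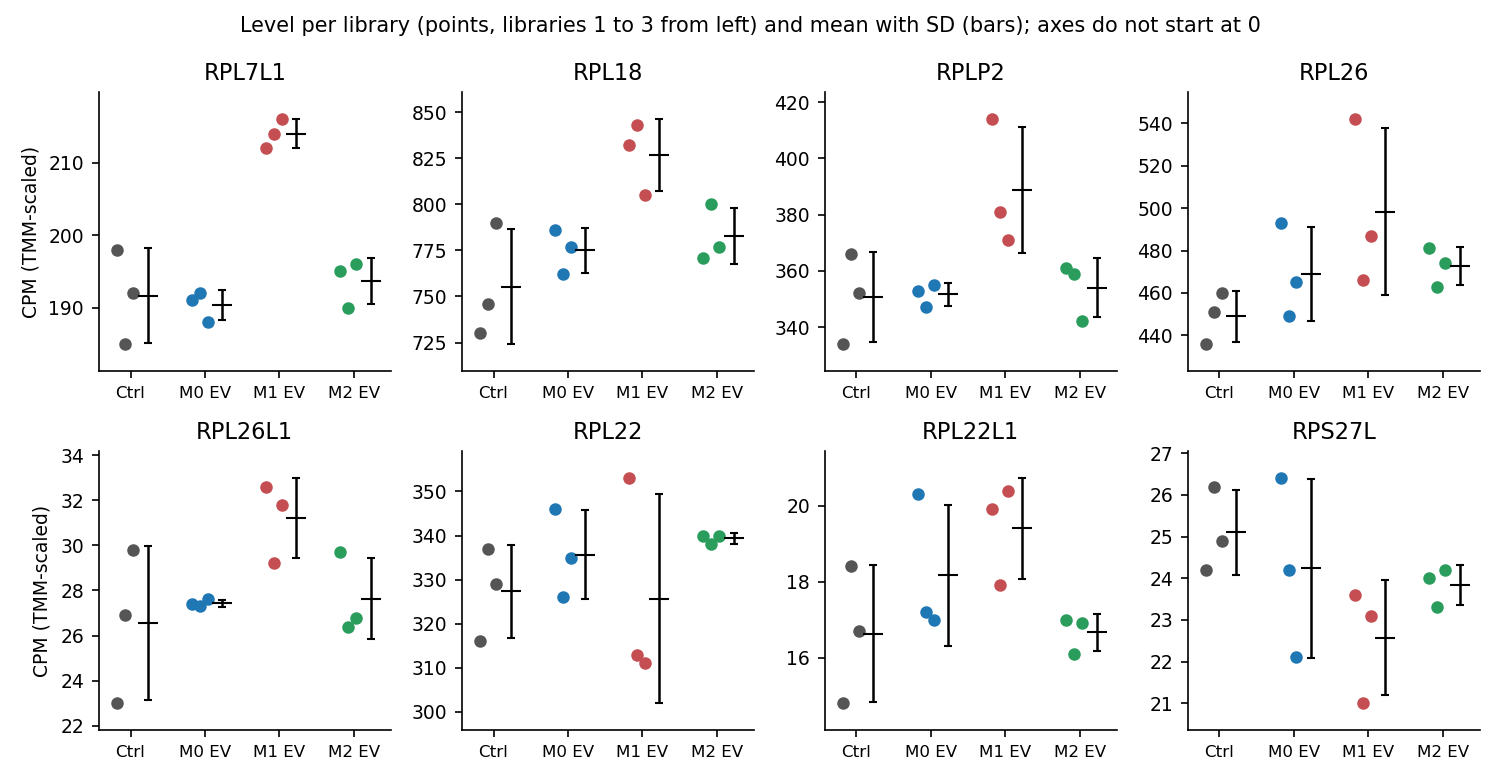
CPM of 8 members in each library (points, libraries 1 to 3 of a group from left) with the group mean and SD (bars), on axes that do not start at 0. The M1 EV points of RPL7L1, RPL18 and RPLP2 lie above all other libraries, while for RPL22 M1 EV library 1 is the highest of the 12 and M1 EV libraries 2 and 3 are the lowest.

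RPS27L, a paralog of the zinc-binding protein RPS27 that p53 is known to induce, was at 24.2, 26.2 and 24.9 CPM in Ctrl and 23.6, 21.0 and 23.1 CPM in M1 EV. All M1 EV libraries were below all Ctrl libraries, and M0 EV library 3, at 22.1 CPM, was low too. The log2 fold change of -0.15 ± 0.074 did not pass (SE, edgeR adjusted p = 0.126), nor did that of -0.19 without M1 EV library 1 (adjusted p = 0.104). RPL39L, a testis-enriched paralog of the tunnel protein RPL39, was at 30.0, 27.6 and 27.7 CPM in Ctrl and 30.6, 27.9 and 28.2 CPM in M1 EV, with a log2 fold change of 0.022 (adjusted p = 0.86). Per kb it was 15.5% ± 0.91 of RPL39 in Ctrl, the highest ratio of any paralog to its partner. RPL3L, known from muscle, and RPL10L, known from testis, stayed at or under 4 counts in every group, so no fold is given.

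M0 EV and M2 EV asked whether vesicles of the other macrophage states did the same. In M0 EV against Ctrl no member was called (edgeR), 1 had an unadjusted p below 0.05 (RPS15A), DESeq2 called none, and 0.0152% of all genes were called in either direction. The median member was at 0.018. In M2 EV against Ctrl no member was called, 2 had an unadjusted p below 0.05 (RPL28 and RPS26), DESeq2 called none, and 0.0457% of all genes were called. The median member was at 0.022, and the lowest adjusted p was 0.533, for RPL28 at 0.10. In M2 EV against M0 EV no member was called, 3 had an unadjusted p below 0.05, DESeq2 called none, and 0% of all genes were called. These comparisons share libraries with each other and with M1 EV against Ctrl.

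Between vesicle types, M1 EV was compared directly with the other 2. Against M0 EV, 8 members were called higher and none lower, with 12.5% of all genes called higher and 12.8% lower. Among them were RPL7L1, RPLP2, RPL14, RPL18, RPL28, RPL6 and RPS6. Against M2 EV, 7 were called higher and none lower, with 12.6% of all genes called higher and 12% lower. Among them were RPL7L1, RPLP2, RPS15, RPL29 and RPS19. Both shares of members are below those of all genes. Without M1 EV library 1, the comparison with M0 EV called RPL7L1 higher (10.4% of all genes) and RPL22 and RPS15A lower (10% of all genes), and that with M2 EV called RPL7L1 higher (10.2%) and RPL22 lower (9.45%). In the same pair of comparisons with all libraries, RPLP2 rose by 0.14 ± 0.037 against M0 EV (SE, edgeR adjusted p = 0.00332) and by 0.13 ± 0.037 against M2 EV (adjusted p = 0.0059).

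The genes that build and serve the ribosome were read from lists for comparison. Among 66 ribosome biogenesis factors, 57 were called higher and none lower in M1 EV against Ctrl, with a median of 0.23, and 51 without M1 EV library 1, again with a median of 0.23. DDX21, a nucleolar RNA helicase, was at 319 ± 8 CPM in Ctrl and 416 ± 9.2 CPM in M1 EV (SD, n = 3), a rise of 0.38 on the log2 scale (edgeR adjusted p = 3.74e-12) and of 0.39 without M1 EV library 1. MRTO4, a placeholder for RPLP0 on the immature large subunit, rose by 0.44, from 101 ± 1.9 to 137 ± 1 CPM (adjusted p = 9.21e-12). Of 16 genes of RNA polymerase I and its factors, 6 were higher and none lower, with a median of 0.13, and 6 were higher without that library. So the members, at 21 of 82 and a median of 0.047, lay closer to all genes than the factors that assemble them. Whether the lists differ was not tested.

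The mitochondrial ribosomal proteins, encoded by a separate set of nuclear genes with transcripts that are also short, had 26 of 77 called higher and none lower, with a median of 0.092, and 12 without M1 EV library 1, with a median of 0.066. Their median deviation was 0.11, 0.033 and 0.051 in the 3 M1 EV libraries, above all of Ctrl, where it was -0.032, -0.043 and -0.019. The cytosolic members showed no such separation, with M1 EV library 2 below Ctrl libraries 2 and 3. The difference between both sets was not tested.

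Of 40 translation initiation factors, 18 were higher and 3 lower, among them EIF5A, at 1304 ± 23 and 1543 ± 36 CPM (SD, n = 3; log2 fold change 0.24, edgeR adjusted p = 4.01e-09). Leaving out M1 EV library 1, 12 were higher and 3 lower, and EIF5A was at 0.22 (adjusted p = 1.32e-07). EIF4EBP2, a repressor of cap-dependent initiation, fell by 0.27 (adjusted p = 4.71e-07). EIF4EBP1, of the same family and list, went the other way and rose by 0.23 (adjusted p = 0.000566). Its value without M1 EV library 1 was 0.19 (adjusted p = 0.00822). Of 14 elongation and termination factors, 5 were higher and 1 lower, and without that library 4 and 1. Other genes known for a pyrimidine tract, which are regulated like the members in translation, had 6 of 29 higher and 2 lower, with a median of 0.034, and 2 higher and 2 lower without M1 EV library 1. The higher ones included SNHG16 at 0.26 (edgeR adjusted p = 5.22e-05), EEF2 at 0.1 (adjusted p = 0.00459) and EEF1B2 at 0.14 (adjusted p = 0.00541). Among the lower ones was EEF1A1, the elongation factor that brings aminoacyl-tRNA to the ribosome. It was at 8933 ± 205 CPM in Ctrl and 8417 ± 49 CPM in M1 EV (-0.086 ± 0.026, edgeR adjusted p = 0.0103).

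**Figure D5:**
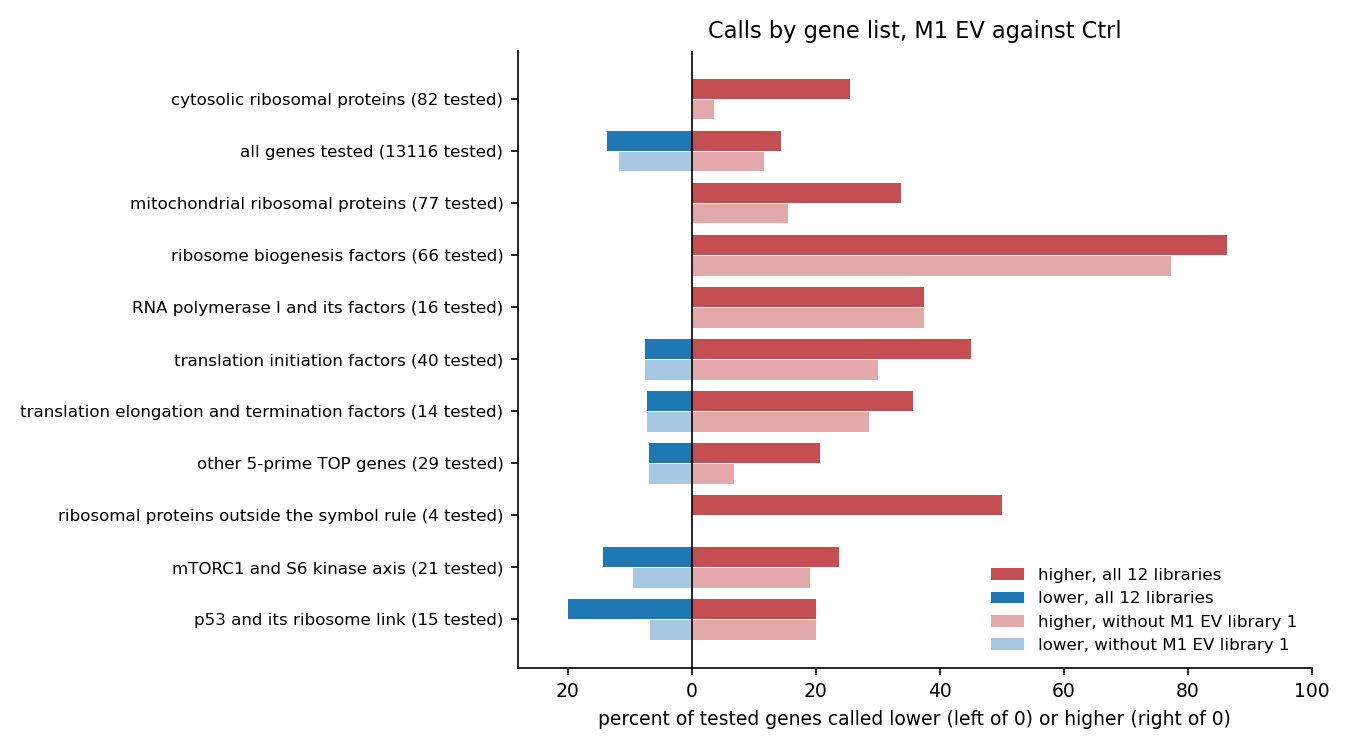
Percent of the tested genes of each list called higher (right) or lower (left) in M1 EV against Ctrl, with all 12 libraries (dark bars) and without M1 EV library 1 (light bars). Of 66 biogenesis factors 57 are called higher, and of 82 cytosolic ribosomal protein genes 21 with all libraries and 3 without that one.

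Ribosomal proteins whose symbols fall outside the naming rule were taken as a separate list. FAU, a fusion of a ubiquitin-like protein with a small-subunit protein, rose by 0.13 (edgeR adjusted p = 0.0191) and was at 0.075 without M1 EV library 1 (adjusted p = 0.224). RACK1, a scaffold on the small subunit, and RPL36AL were not called, at 0.063 and 0.053. Of 21 tested genes of the mTORC1 and S6 kinase axis, 5 were higher and 3 lower, and 4 and 2 without M1 EV library 1. LARP1, the protein that binds pyrimidine tracts, rose by 0.14 ± 0.031 (adjusted p = 0.000468) and by 0.16 without that library (adjusted p = 0.000377). Of 15 tested genes of p53 and its ribosome link, 3 were higher and 3 lower, and 3 and 1 without that library. CDKN1A, the cell-cycle inhibitor, went from 7.23 ± 0.41 to 18.5 ± 0.86 CPM (1.35 ± 0.096, adjusted p = 2.2e-14), and its value without that library was 1.33. The rest of the list was not alike, and its median was -0.0022. BAX rose by 0.16 (adjusted p = 0.00448), while PHLDA3 was at -0.40 (adjusted p = 0.0228) and RRM2B at -0.17 (adjusted p = 0.0319). Neither list had a gene called in M0 EV or M2 EV against Ctrl.

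Reads that match pseudogenes could be split from the members, since ribosomal protein genes have many processed copies. The 30 pseudogene rows of these genes in the table, 28 of them with counts, held 0.134% of the members' counts. The highest was RPL13AP5, at 1.25% of the counts of RPL13A. The sources used here do not give how reads with more than 1 match were counted. RPS10 shares exons with the read-through gene RPS10-NUDT3, so its call may include reads of that gene.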

How the data were processed

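Poly(A) RNA of MV3 cells was sequenced in 12 libraries (Ctrl, M0 EV, M1 EV and M2 EV, 3 each). The submitters' processing notes name STAR 2.6.1b, HOMER 4.10 and hg38 without the role of each, and whether reads were counted by strand was not stated in them. The authors deposited expected counts for 70507 RefSeq transcripts, in steps of 0.5 and not normalized. Transcripts were named with RefSeq (69830) or GENCODE release 29 (343), and the 334 unnamed, with 0.0584% to 0.0623% of a library's counts, were left out. A column name that lacks the digit of the cell line was taken as M0 EV library 1, the one library otherwise without a column.

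The transcript with the highest sum over all libraries stood for each gene, and its expected counts were rounded. In R 4.3.3, edgeR 4.0.16 fitted a quasi-likelihood model with 1 term per group to all 12 libraries (13116 genes kept by its default filter, TMM factors 0.993 to 1.007, 8 residual degrees of freedom and a biological coefficient of variation of 2.59%). P-values are 2-sided and adjusted by Benjamini-Hochberg over all tested genes of a comparison, with calls below 0.05. CPM values are TMM-scaled. A group whose libraries hold no count of a gene allows up to 3 counts, or 0.0795 to 0.0971 CPM, for counting error only. The method was tested on simulated data.

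The members, gene lists and rules were chosen with earlier results of these data known. Members were named by size of change, by the 5 highest and lowest levels and from a fixed set (RPS10, RPS15A, RPS20, RPS26 and other genes in lists of calls were named after their values were seen), and other genes as the 4 of a list with the smallest adjusted p. A few genes that these rules name are left out of the text. The alternatives tried were DESeq2 1.42.0, other scalings, no filter, summed transcripts, a replicate block, removed trends with length and GC content, and each library left out.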

Additional observations from a re-analysis of the deposited data

How the results depend on the processing

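In M1 EV against Ctrl, where 21 members were called, the count was 12 with transcripts of a gene summed, 13 in DESeq2, 8 with M0 EV and M1 EV libraries 1 both left out, and 3 to 28 with each library left out in turn (3 without M1 EV library 1, 8 without Ctrl library 1). In M1 EV against M0 EV (8) it was 5 with summed transcripts, 5 in DESeq2, 17 (14 higher, 3 lower) with length and GC trends removed, 13 (9 higher, 4 lower) with these trends removed and M1 EV library 1 left out, and 3 with M0 EV libraries 2 and 3 summed as 1 sample. It was 2 to 22 with each library left out: 22, 2 and 4 without M0 EV libraries 1, 2 and 3, and 3 (1 higher, 2 lower) and 15 without M1 EV libraries 1 and 3. In M1 EV against M2 EV (7) it was 3 with summed transcripts, 4 in DESeq2, 11 (10 higher, 1 lower) with the length trend removed, 15 (14 higher, 1 lower) with length and GC trends removed, 11 (8 higher, 3 lower) with these removed and M1 EV library 1 left out, and 5 (2 higher, 3 lower) with M0 EV and M1 EV libraries 1 both left out. It was 2 to 14 with each library left out: 2 (1 higher, 1 lower), 14 and 12 without M1 EV libraries 1, 2 and 3, 11 without M0 EV library 1, and 4 and 3 without M2 EV libraries 2 and 3. The comparisons among Ctrl, M0 EV and M2 EV called no member in any setting run. With summed transcripts the members' share of counts was 3.77% in Ctrl, 3.8% in M0 EV, 3.91% in M1 EV and 3.83% in M2 EV. RLE or upper-quartile scaling and TMM without the members left the count against Ctrl at 21, and library totals alone gave 14. The cause of these differences was not tested.

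Same-numbered libraries showed no strong pairing over all tested genes. The correlation of their deviations from the group means was -0.0479 to 0.0896, none of 18 above 0.1. This correlation includes counting noise and covers all genes, so it does not measure a shift of the members alone. Within M0 EV, M1 EV and M2 EV, the members' share of counts was highest in library 1 (5.07%, 5.22% and 5.02%). Within Ctrl it was lowest in library 1 (4.75%). A link with the library number was not tested. With a replicate block the counts were 23, 11 and 9 in M1 EV against Ctrl, M0 EV and M2 EV, and with the block and length and GC trends removed 26, 19 and 16, of which 1, 3 and 1 were lower. Pairs of libraries within a group differed by 1.04 to 2.33 times what counting alone gives, by a chi-square statistic over its degrees of freedom, least for M0 EV libraries 2 and 3, which were kept as 2 samples because they still differed beyond it. The smallest change of a member called against Ctrl was 0.086 on the log2 scale (RPS19), and members at up to 0.22 (RPL22L1) were not called, so changes of this size or less could be missed at this depth and spread.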
